A study of Mus musculus with 2 samples.

Results

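The regions described here are the MeDIP-seq peaks at 6 genes for transcription factors of fat cell formation: Zfp423, Ebf1, Pparg, Cebpa, Rxra and Srebf1. A peak was taken when it overlapped by at least 1 bp a window of mm9 that holds the gene and about 10 kb on each side. This gave 207 peaks of 342199 on the nuclear chromosomes, 108 of 175767 in the high-fat list and 99 of 166432 in the chow list. MeDIP-seq captures DNA fragments that carry 5-methylcytosine with an antibody and sequences them, and a peak is a stretch where such fragments pile up. The tissue was epididymal white adipose tissue, a visceral fat depot, of male mice of the inbred strain C57BL/6J. The HFD group received a diet with 60% of its energy from fat, and the STD group received regular chow, each for 5 months from an age of 4 weeks. The lists give positions only, so the sequencing depth is unknown. Each diet has 1 library, and the sources used here do not say how many mice went into it. There is therefore no test across samples and no p-value below. Intervals are exact 95% intervals that cover counting error only and treat neighbouring peaks as independent.

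Fat cells form in steps that these factors govern. ZFP423, a zinc finger protein, marks cells committed to the fat lineage, and EBF1, a helix-loop-helix factor first known from B cells, acts early and switches on later factors. PPARG, a nuclear receptor, and CEBPA, a leucine zipper factor, sustain each other's expression and drive the fat cell programme. PPARG binds DNA together with the nuclear receptor RXRA, and SREBF1 directs genes of fatty acid synthesis. In mammals DNA methylation falls mostly on cytosines of CpG pairs. Promoters rich in CpG pairs are commonly unmethylated, whereas gene bodies are commonly methylated at the CpG pairs they hold.

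The starts of these genes differ in how many CpG pairs they offer to the assay. RefSeq (GRCm38.p6) gives 13 starts for the 6 genes. In the 250 bases before the start, the first start of Rxra had 40 CpG pairs and the first start of Pparg had 38, more than 98.7% and 98.1% of the 32851 promoters of the table. The single start of Cebpa had 22. Start 3 of Pparg, 60.9 kb inside the gene, is that of the isoform enriched in fat cells, and it had 2 CpG pairs. The median over all promoters was 6, with quartiles of 2 and 16. The 250 bases before 4 of these starts are shown because the following results turn on whether peaks lie near them. Capitals mark CpG pairs, all 4 are on the + strand, and positions are those of GRCm38.p6, which cannot be set beside the mm9 positions of the peaks.
Pparg, start 1, chr6:115360894-115361143: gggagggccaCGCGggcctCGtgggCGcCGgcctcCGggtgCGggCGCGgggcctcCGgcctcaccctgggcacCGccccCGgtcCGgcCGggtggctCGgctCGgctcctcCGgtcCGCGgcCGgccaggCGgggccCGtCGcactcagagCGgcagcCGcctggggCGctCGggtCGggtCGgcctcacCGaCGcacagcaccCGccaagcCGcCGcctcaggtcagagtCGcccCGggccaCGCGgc
Pparg, start 3, chr6:115421816-115422065: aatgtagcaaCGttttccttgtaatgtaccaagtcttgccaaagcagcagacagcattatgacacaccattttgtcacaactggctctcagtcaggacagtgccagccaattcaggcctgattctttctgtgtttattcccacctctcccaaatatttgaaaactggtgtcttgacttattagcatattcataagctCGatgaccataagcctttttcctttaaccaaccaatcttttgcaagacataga
Cebpa, chr7:35119043-35119292: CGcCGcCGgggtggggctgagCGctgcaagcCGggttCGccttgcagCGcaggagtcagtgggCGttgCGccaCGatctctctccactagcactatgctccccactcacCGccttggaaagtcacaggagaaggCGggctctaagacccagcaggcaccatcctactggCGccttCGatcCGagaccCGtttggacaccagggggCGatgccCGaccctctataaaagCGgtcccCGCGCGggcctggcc
Rxra, start 1, chr2:27676951-27677200: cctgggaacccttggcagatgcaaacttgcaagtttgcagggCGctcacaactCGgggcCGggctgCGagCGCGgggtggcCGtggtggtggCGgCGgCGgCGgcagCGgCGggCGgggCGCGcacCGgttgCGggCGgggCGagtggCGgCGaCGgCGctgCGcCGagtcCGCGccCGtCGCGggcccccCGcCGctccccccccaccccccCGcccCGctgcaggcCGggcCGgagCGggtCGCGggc
The first Pparg, the Cebpa and the Rxra sequences hold CpG pairs along most of their length, and the sequence before start 3 of Pparg holds only 2, far apart.

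**Figure D1:**
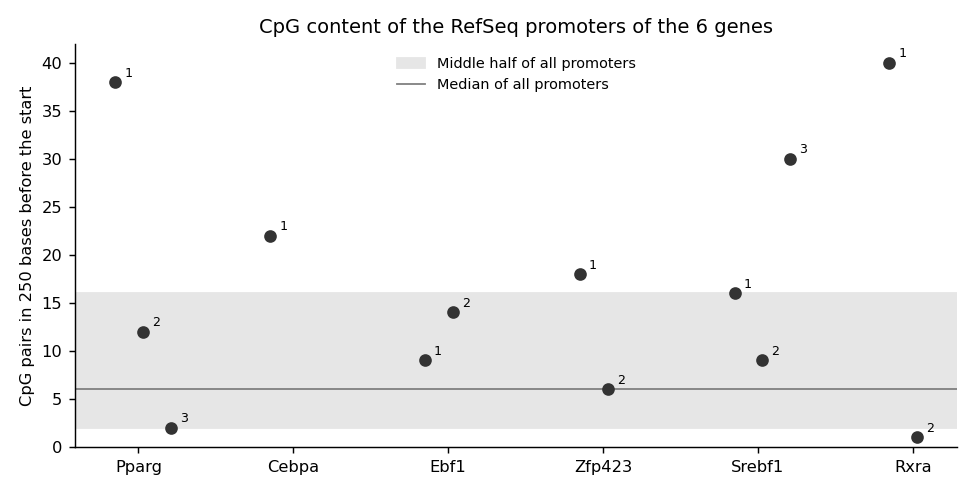
CpG pairs in the 250 bases before each RefSeq start (y axis) of the 6 genes (x axis); points are single starts, numbered along the direction of transcription, the line is the median of all promoters (6) and the band spans their quartiles (2 to 16). The first starts of Rxra (40) and Pparg (38) lie far above the band, and start 3 of Pparg (2) and start 2 of Rxra (1) lie at or below its lower edge.

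Peaks were spread very unequally over the 6 genes, in much the same way with both diets. Zfp423 held 46 HFD and 47 STD peaks in a window of 319 kb, and Ebf1 held 39 and 31 in 412 kb. Pparg held only 3 and 3 in 150 kb, Cebpa 3 and 1 in 23 kb, Rxra 9 and 11 in 108 kb, and Srebf1 8 and 6 in 44 kb. Over the 6 windows, the ratio of HFD to STD peaks was 1.09 (interval 0.823 to 1.45). It was 1.097 (0.980 to 1.23) in the 500 kb on each side of the windows and 1.06 in the whole lists. The direction differed between the genes, with ratios of 1.26 for Ebf1, 1.33 for Srebf1, 0.979 for Zfp423 and 0.818 for Rxra, and that of Srebf1 turned to 0.5 when peaks within 50 bp of the narrowest width were left out. The intervals of all 6 genes included 1, so no diet difference in peak number exceeded counting error at any of the 6 genes. Merged across diets, the peaks formed 138 separate loci. HFD and STD shared 68 of them, 40 came from the HFD list alone and 30 from the STD list alone. Loci were not counted over the whole lists. Counted by peak, 37.0% of the HFD and 30.3% of the STD peaks in the windows had no overlapping peak of the other diet. In the whole lists these shares were 30.3% and 26.5%. In bulk tissue, a change of methylation within a cell type and a change in the mix of cell types cannot be told apart.

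Positions relative to a gene start are approximate. The start was taken as 10 kb inside the window, on the side given by the RefSeq strand. Windows without their flanks differed from the RefSeq gene length by at most 2.003 kb, and the first RefSeq start lay up to 2.46 kb inside the RefSeq limits of the gene.

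**Figure D2:**
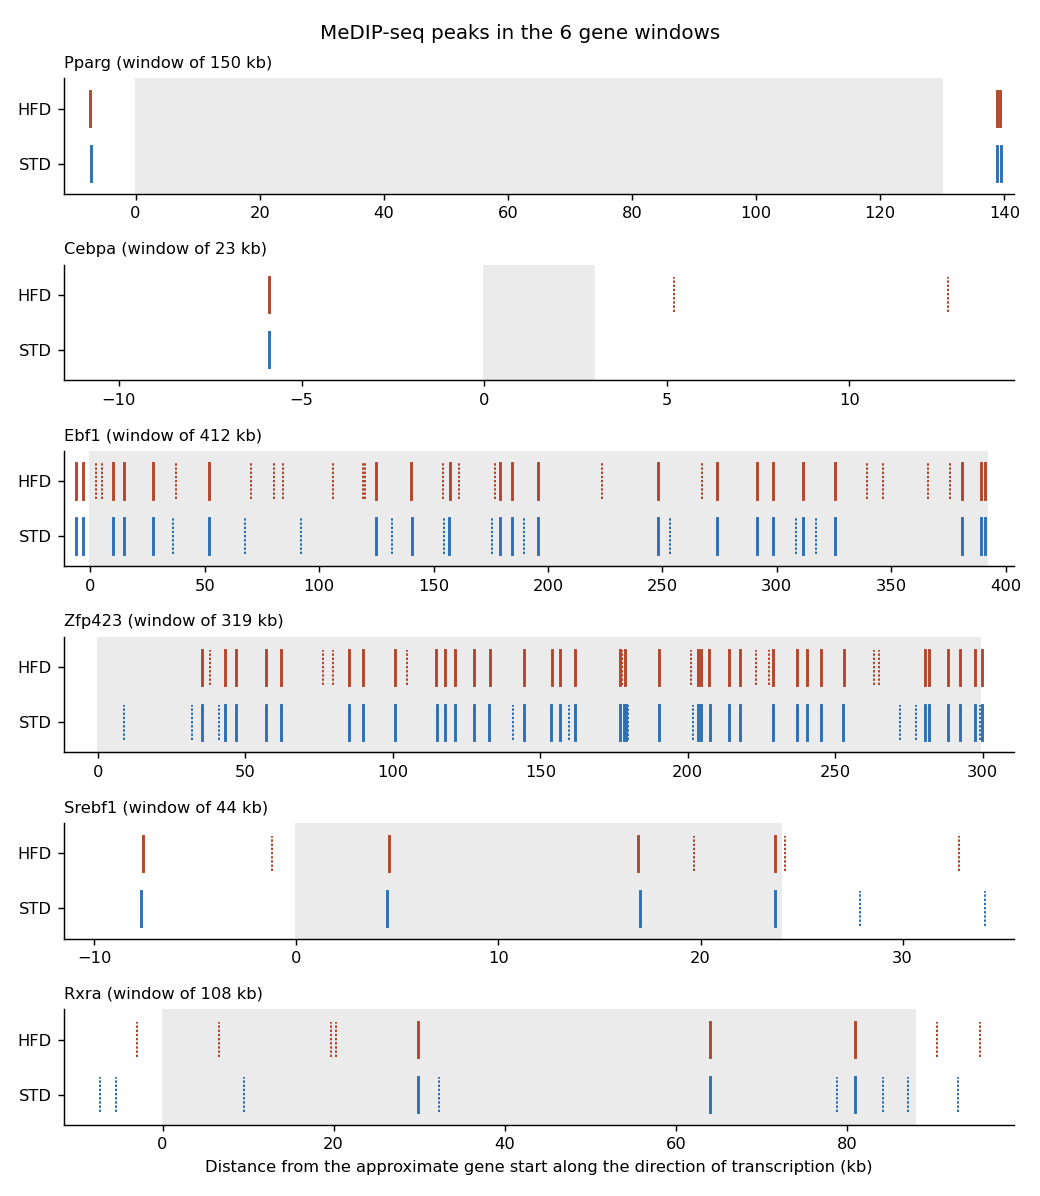
Peaks of the HFD library (upper row) and the STD library (lower row) in each window; the x axis is the distance in kb of the peak midpoint from the approximate gene start, each panel with its own scale, and grey marks the window without its flanks. Solid ticks have an overlapping peak of the other diet and dotted ticks have none. Pparg is empty between 2 outer groups of peaks, Zfp423 is filled from about 35.2 kb onward, and most ticks of Rxra are dotted.

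Zfp423 lies on chromosome 8, on the minus strand, in the window from 90175 to 90494 kb, and carried the most peaks of the 6 genes. Its density was 144 HFD and 147 STD peaks per Mb, against 87.0 and 82.0 per Mb in the 500 kb on each side. That is 1.66 times (interval 1.13 to 2.40) and 1.80 times (1.23 to 2.60) as high, and the interval left out 1 in both libraries. Peaks covered 5.57% of the window in the HFD list and 5.67% in the STD list, against 3.04% and 3.02% of the surroundings. Of all stretches of 319 kb laid end to end over the 19 autosomes, 88.7% held fewer HFD peaks and 92.2% fewer STD peaks than this window.

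The part of Zfp423 nearest its start had the fewest peaks in both lists. Cut into 4 equal parts from its start to its end, the gene had 6, 12, 14 and 13 HFD peaks, and 8, 10, 15 and 12 STD peaks. These counts are small, and whether they differ by more than counting error was not tested. No HFD peak lay between 12.8 kb before the start and 35.0 kb after it, a stretch of 47.8 kb. Of stretches between neighbouring HFD peaks on the autosomes, 5.01% were at least that long. They held 35.4% of the bases between those peaks, so such a stretch is not rare by length. In the stretch at Zfp423 the STD list had 2 peaks. The first was 276 bp wide, from 90475095 to 90475370, 8.8 kb from the start and 21.5 kb from the nearest HFD peak, and the other was 327 bp wide at 31.9 kb. The first peak found with both diets was at 35.2 kb, 379 bp wide with HFD and 388 bp with STD. RefSeq places the noncoding gene Gm34412 inside Zfp423 and Gm42032 within 10 kb before it.

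The broadest peak at any of the 6 genes lay inside Zfp423, 178.8 kb from its start. The HFD list had 1 peak of 1268 bp there, from 90304538 to 90305805, which overlapped 2 STD peaks of 551 and 594 bp. An STD peak of 380 bp without a partner ended 0.169 kb from it. The widest STD peak of the gene, at 214.1 kb, measured 775 bp and overlapped an HFD peak of 744 bp. Both libraries thus had signal at these broad places, and the lists divided it differently at the first.

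Most Zfp423 peaks were found with both diets. A partner, meaning an overlapping peak of the other list, was present for 36 of 46 HFD peaks (78.3%, interval 63.6 to 89.1) and for 37 of 47 STD peaks (78.7%, 64.3 to 89.3). In the surroundings the shares were 69.0% and 73.2%, inside those intervals. The shares fell when peaks within 50 bp of the narrowest width were left out of both lists. They were then 64.0% (42.5 to 82.0) for HFD and 54.8% (36.0 to 72.7) for STD, where a partner also had to pass that limit. With all peaks kept, 10 peaks of each list had no partner. These were 21.7% of the HFD and 21.3% of the STD peaks, against a background of 30.3% and 26.5% in the whole lists. The broad ones among them were few. With HFD only there was a peak of 407 bp from 90404063 to 90404469, 5.00 kb from any STD peak. With STD only there was a peak of 463 bp from 90211964 to 90212426, 6.50 kb from any HFD peak. An STD peak of 366 bp from 90184783 to 90185148, at the far end of the gene, had an HFD peak 0.199 kb away.

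Ebf1, on chromosome 11 in the window from 44420 to 44832 kb, had peaks along its whole length at a density close to that of its neighbourhood. There were 94.7 HFD and 75.2 STD peaks per Mb, against 85 and 88 in the surroundings, which is 1.11 times (0.742 to 1.65) and 0.855 times (0.549 to 1.30) as many. In 4 equal parts of the gene from start to end, the HFD list had 10, 12, 5 and 10 peaks and the STD list 7, 10, 4 and 8. The part with the fewest peaks was thus the same in both libraries. The longest stretch with no peak of either diet, 27.8 kb, began 195.6 kb from the start. On the autosomes, 7.98% of stretches between neighbouring peaks of either list were at least that long. They held 43.9% of the bases between peaks.

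Close to the start of Ebf1 both libraries had a peak before the gene. With HFD it ran from 44426459 to 44426985 and measured 527 bp, and with STD it ran from 44426669 to 44427046 and measured 378 bp. Behind the start, the HFD list had 2 narrow peaks of 275 and 274 bp at 2.3 and 5.2 kb that no STD peak overlapped. The nearest STD peaks to these were 5.10 and 4.35 kb away. RefSeq gives Ebf1 a second start 2.128 kb after the first, so the HFD peak at 2.3 kb may lie close to that start. The first shared peak inside the gene was at 9.9 kb, 331 bp wide with HFD and 318 bp with STD.

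Peaks found with 1 diet only were more numerous with HFD at Ebf1, although the ratio of all its peaks, 1.26, had an interval of 0.765 to 2.09. Of 39 HFD peaks 18 had no partner (46.2%), and of 31 STD peaks 10 had none (32.3%). The background was 30.3% and 26.5%. The share with a partner was 53.8% (37.2 to 69.9) for HFD and 67.7% (48.6 to 83.3) for STD. The HFD share in the surroundings, 71.8%, was above the HFD interval, and the share that HFD peaks of these widths had in the whole list, 68.7%, was inside it. Of the 18 HFD peaks, 12 were within 50 bp of the narrowest width in their list, and so were 8 of the 10 STD peaks.

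The broad ones among these peaks lay inside the gene. With HFD only, Ebf1 had a peak of 510 bp from 44776323 to 44776832, 20.6 kb from any STD peak. It had another of 438 bp from 44653459 to 44653896, 23.9 kb from any, and one of 473 bp from 44513855 to 44514327 at 7.40 kb. The first of these belongs to the longest stretch of Ebf1 without an STD peak, 54.9 kb near the end of the gene, in which the HFD list had 4 peaks. Besides the peak of 510 bp, the HFD peaks in this stretch were 265, 262 and 255 bp wide, where the narrowest HFD width was 255 bp. Stretches at least that long made up 4.50% of all stretches between neighbouring STD peaks on the autosomes. They held 33.4% of the bases between those peaks, so such a stretch is not rare by length. In 1 place the libraries had neighbouring broad peaks in place of a common one. An HFD peak of 381 bp, from 44583749 to 44584129, was followed after 0.285 kb by an STD peak of 423 bp, from 44584415 to 44584837.

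Pparg, on chromosome 6 in the window from 115301 to 115451 kb, had no peak inside the gene in either library. All of its peaks lay in the flanks, and each was found with both diets. All 3 STD peaks were within 50 bp of the narrowest width of their list. With such narrow peaks left out of both lists, the share of HFD peaks with a partner was 0% (interval 0 to 84.2). This value was fixed in advance, because no STD peak was left to be a partner. Before the gene, an HFD peak of 281 bp, from 115303598 to 115303878, overlapped an STD peak of 279 bp. After the gene there was a close pair of places. The first had peaks of 323 bp with HFD and 292 bp with STD, 138.8 kb from the start, and the second had peaks of 317 bp and 263 bp. The stretch between, from 115303903 to 115449663, was 146 kb long with no peak of either list. Going by the distances between starts on GRCm38.p6, it spans all 3 RefSeq starts, both the CpG-rich and the CpG-poor one shown above.

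Stretches of this length were few. On the autosomes, 634 of 217410 stretches between neighbouring peaks of either list were at least as long (0.292%), and they held 6.74% of the bases between peaks. The window had 20 peaks per Mb in either list, against 111 HFD and 102 STD peaks per Mb in the surroundings. That is 0.180 times (0.0366 to 0.540) and 0.196 times (0.0398 to 0.589) as many. The 500 kb on the side of lower coordinates held 53 HFD and 49 STD peaks, and the other side 58 and 53, so the low density did not extend over either side as a whole. Of stretches of 150 kb over the autosomes, 15.9% had fewer HFD peaks and 16.9% fewer STD peaks. The lists do not tell DNA without methylation from DNA where no peak passed the threshold of the caller.

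Cebpa, a short gene on chromosome 7 in the window from 35894 to 35917 kb, also had no peak inside the gene. Before it, at 5.9 kb, both libraries had a peak, 393 bp wide with HFD (35897891 to 35898283) and 352 bp with STD (35897893 to 35898244). After it, the HFD list alone had 2 peaks. The first, of 273 bp from 35909053 to 35909325, was 10.8 kb from any STD peak, and the second, of 288 bp from 35916508 to 35916795, was 16.4 kb from any. The STD list had no peak from 5.8 kb before the start to 29.2 kb after it, which is beyond the window. Of stretches between neighbouring STD peaks on the autosomes, 8.59% were at least as long, and they held 45.9% of the bases between those peaks. A count of 3 against 1 gives a ratio of 3 with an interval of 0.241 to 157.5. Both HFD peaks were within 50 bp of the narrowest width, and the ratio was 1 when such narrow peaks were left out of both lists. RefSeq places the noncoding genes Gm35724 and Gm51475 within 10 kb after Cebpa, so these peaks need not belong to it. The CpG-rich sequence before the Cebpa start lay in a stretch of 10.8 kb without a peak of either library. On the autosomes, 25.8% of stretches between neighbouring peaks of either list were at least that long. They held 71.7% of the bases between peaks, so most places between peaks lie in such a stretch.

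Rxra, on chromosome 2 in the window from 27521 to 27629 kb, was the gene at which the libraries had the smallest share of places in common. Of its 17 loci, 3 were common to the diets, 6 came from the HFD list alone and 8 from the STD list alone. The 3 common places were at 29.9, 64.0 and 80.9 kb from the start. Their HFD peaks were 452, 470 and 281 bp wide, and the STD peaks 393, 413 and 263 bp. No partner was found for 6 of 9 HFD peaks (66.7%, background 30.3%) and for 8 of 11 STD peaks (72.7%, background 26.5%). The share with a partner was 33.3% (7.49 to 70.1) for HFD and 27.3% (6.02 to 60.97) for STD. In the surroundings it was 73.6% and 79.2%, above both intervals. Over the whole lists, peaks of the widths seen at Rxra had a partner in 60.6% (HFD) and 64.5% (STD) of cases. The HFD interval includes this value and the STD interval does not. With narrow peaks left out of both lists, the shares at Rxra were 66.7% (9.43 to 99.2) for HFD and 50% (6.76 to 93.2) for STD. So few peaks remained that these intervals include nearly any share. Shares of the surroundings without narrow peaks were not computed, so this setting cannot show whether the difference from the surroundings remains. Without the flanks the shares at Rxra were 50% (11.8 to 88.2) for HFD and 37.5% (8.52 to 75.5) for STD. Here the HFD interval includes the 73.6% of the surroundings, and the STD interval still lies below their 79.2%.

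The peaks of Rxra found with 1 diet only lay in short runs of either diet, an order that was not tested. None lay between 32.3 and 78.9 kb, where the stretch from 32.4 to 63.7 kb held no peak of either list. An HFD peak of 266 bp lay 3.0 kb before the start, and STD peaks of 293 and 281 bp lay 7.3 and 5.4 kb before it. Inside the gene, HFD peaks of 284, 271 and 342 bp were at 6.6, 19.7 and 20.3 kb, and an STD peak of 265 bp was at 9.5 kb. Further along, STD peaks of 263, 296, 263 and 332 bp followed at 32.3, 78.9, 84.2 and 87.1 kb with no HFD peak without a partner between them. After the gene, HFD peaks of 274 and 267 bp lay at 90.5 and 95.6 kb, and an STD peak lay between them at 93 kb. Each of the 6 HFD peaks had an STD peak within 2.09 to 9.90 kb, and each of the 8 STD peaks had an HFD peak within 1.65 to 3.99 kb. The broadest of them was an STD peak of 436 bp from 27623795 to 27624230, after the gene. Of the others, 5 HFD and 6 STD peaks were within 50 bp of the narrowest width. The density at Rxra was 83.3 HFD and 102 STD peaks per Mb, against 129 and 120 in the surroundings, and the intervals of both ratios (0.289 to 1.27 and 0.413 to 1.57) included 1. No peak lay within 2 kb of the start, where the CpG-rich sequence shown above is, and the nearest shared peak was 29.9 kb away.

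Srebf1, on chromosome 11 in the window from 60002 to 60046 kb and on the minus strand, was the only one of the 6 genes with a peak within 2 kb of the approximate start. This was an HFD peak of 302 bp, from 60037008 to 60037309, 1.2 kb before the start. The nearest STD peak was 5.38 kb away. Given the error of the start, this HFD peak may lie on either side of it. By the same error, the limit of 2 kb does not set Srebf1 apart from Ebf1, which had an HFD peak at 2.3 kb. The Ebf1 window without its flanks differed from the RefSeq gene length by 2.003 kb. The shared peaks were at 7.6 kb before the start, and at 4.6, 16.9 and 23.7 kb after it. Their HFD widths were 407, 296, 800 and 289 bp, and their STD widths 381, 290, 510 and 263 bp. Density was 182 HFD and 136 STD peaks per Mb, against 103 and 85 in the surroundings, with intervals of the ratios (0.742 to 3.61 and 0.573 to 3.64) that included 1.

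The remaining Srebf1 peaks were found with 1 diet. HFD alone had peaks of 276, 288 and 266 bp at 19.7, 24.2 and 32.8 kb, and STD alone had peaks of 360 and 682 bp at 27.9 and 34.1 kb. The STD peak of 682 bp, from 60001604 to 60002285, is a member only through its last part, as it crosses the edge of the window, and an HFD peak lay 0.499 kb from it. Of the peaks just outside a window, the HFD peak closest to Zfp423 ended the empty stretch 12.8 kb before its start. RefSeq places Rai1 after Srebf1 and Tom1l2 before it, each within 10 kb, so the peaks in the flanks may belong to those genes.

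**Figure D3:**
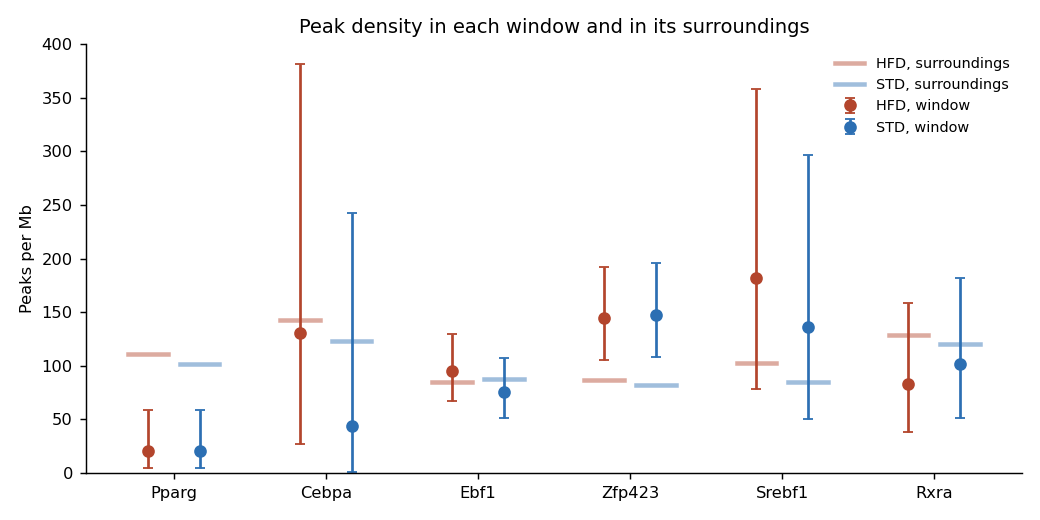
Peaks per Mb (y axis) in the window of each gene (points, with exact 95% intervals of the count) and in the 500 kb on each side (horizontal bars), HFD left and STD right. Pparg (20 and 20 per Mb) lies below its surroundings and Zfp423 (144 and 147 per Mb) above them in both libraries, while the intervals of the other 4 genes include the surroundings.

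Summed over the 6 windows, the density was close to that of the surroundings. It was 102 HFD and 93.8 STD peaks per Mb, against 109.7 and 100 per Mb in the surroundings, or 0.933 times (0.754 to 1.15) and 0.938 times (0.750 to 1.16). The sum is dominated by Ebf1 and Zfp423, and it does not describe Pparg.

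Across the 6 genes, fewer peaks had a partner than in the surroundings, by an amount inside the interval. It was 68 of 108 HFD peaks (63.0%, 53.1 to 72.1) and 69 of 99 STD peaks (69.7%, 59.7 to 78.5), against 68.8% and 75.5% in the surroundings. Without a partner were 37.0% of the HFD and 30.3% of the STD peaks, where the background was 30.3% and 26.5%. The widths of the members alone would give 67.7% and 72.9% with a partner. Peaks with a partner were wider, with medians of 346.5 bp (HFD) and 355 bp (STD), than peaks without one, at 274 bp and 299 bp. Only 5 of the 40 HFD peaks and 6 of the 30 STD peaks without a partner were more than 100 bp above the narrowest width of their list, which was 255 bp for HFD and 263 bp for STD. A peak of the other diet lay within 500 bp of 4 of the 40 and of 5 of the 30.

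**Figure D4:**
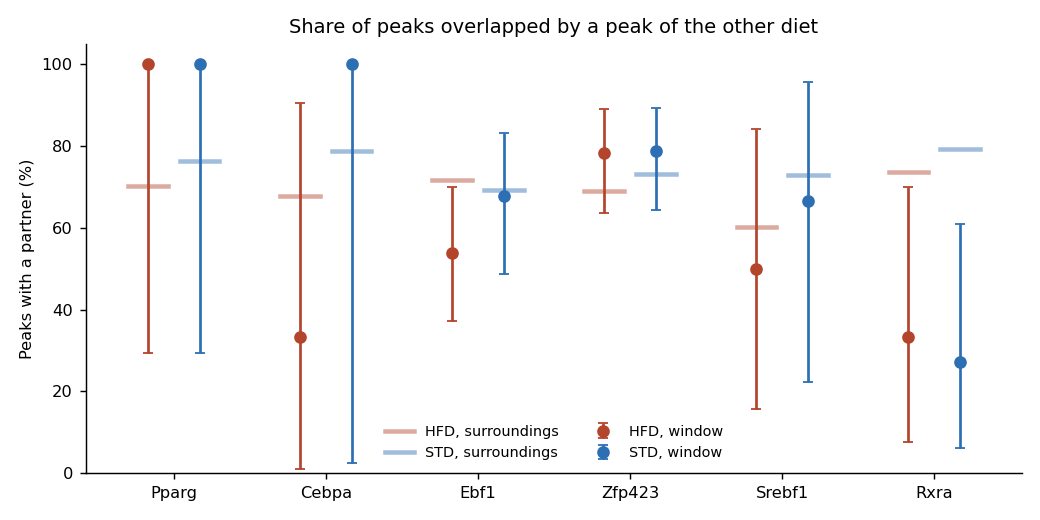
Share of peaks (%, y axis) that a peak of the other diet overlaps, in the window of each gene (points, with exact 95% intervals) and in its surroundings (horizontal bars), HFD left and STD right. Rxra has the lowest STD value (27.3%), and its intervals lie below the bars of its surroundings (73.6% and 79.2%), as does the HFD interval of Ebf1, whose upper limit is 69.9% against 71.8%.

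The peaks found with both diets were in nearly the same positions and differed in width. Among 67 pairs with exactly 1 partner on each side, midpoints were a median of 25 bp apart. The HFD peak was the wider one in 40 pairs (59.7%), and the median difference of HFD minus STD was 12 bp. In the whole lists the HFD peak was wider in 43.3% of 120322 pairs, and the median difference was -8 bp. All pairs at Pparg (3), Cebpa (1), Srebf1 (4) and Rxra (3) were wider with HFD, and 13 of 21 were at Ebf1. At Zfp423 it was 16 of 35, with a median difference of -9 bp. Widths depend on the threshold of the peak caller and on depth, neither of which is given, and neighbouring pairs are not independent.

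Large differences in width were few. The HFD peak was at least 1.5 times as wide in 6 of 67 pairs (8.96%), against a background of 3.04%, and the STD peak in 2 of 67 (2.99%), against 4.00%. Whether these shares differ from the background by more than counting error was not tested. The largest difference was at the end of Ebf1, where the HFD peak from 44818973 to 44819636 was 664 bp and the STD peak 263 bp. That STD width is the narrowest of its list. The same holds at 177.0 kb in Zfp423, where an HFD peak of 417 bp had an STD partner of 263 bp. At Zfp423 the HFD peak was 621 bp and the STD peak 300 bp at 281.8 kb, and 674 and 420 bp at 207.2 kb. At 121.1 kb the order was the other way, with an HFD peak of 268 bp and an STD peak of 540 bp. At Srebf1, the HFD peak of 800 bp had an STD partner of 510 bp. In each of these places both libraries had a peak, and the lists hold no height by which the strength of the signal could be compared.

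**Figure D5:**
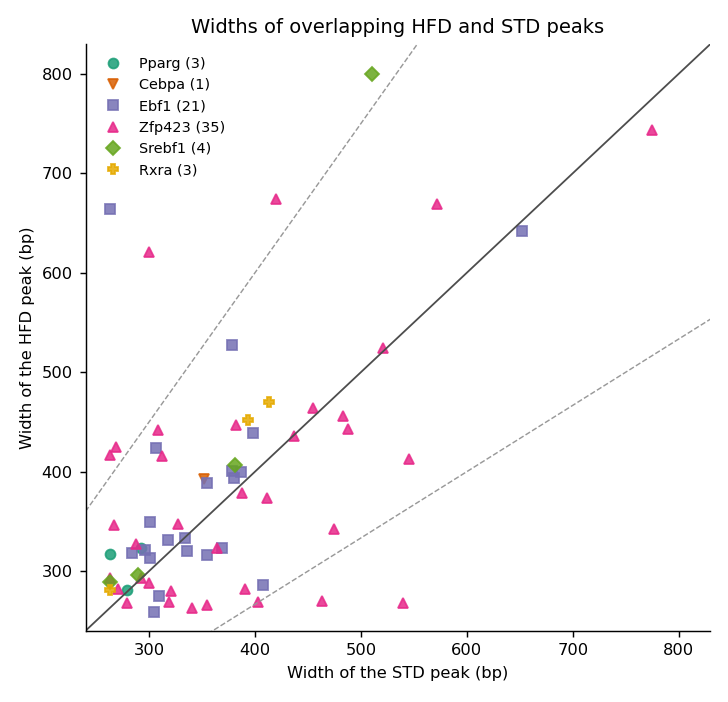
Width in bp of the HFD peak (y axis) against that of the STD peak (x axis) it overlaps, for the 67 pairs with 1 partner on each side; symbols mark genes, with the number of pairs in the legend. The solid line is equal width and the dashed lines are 1.5 times wider on either axis. The 6 points above the upper dashed line belong to Zfp423 (4), Ebf1 (1) and Srebf1 (1), and both points below the lower one to Zfp423.

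The approximate gene starts were examined last, taking 1 start per gene. Further RefSeq starts inside the genes were known only by their distance from the first start on GRCm38.p6, and peaks near them were not counted. By that distance, second starts lay at 2.128 kb in Ebf1, 32.09 kb in Rxra and 155.2 kb in Zfp423. Close to these were an HFD peak at 2.3 kb, an STD peak at 32.3 kb and a shared pair at 156.6 kb. Start 2 of Srebf1 was at 1.954 kb, before a shared peak at 4.6 kb. The further starts of Pparg and start 3 of Srebf1 lay in stretches without a peak of either list. Within 2 kb of the approximate starts there was 1 HFD peak, that of Srebf1, and no STD peak. The HFD peak of Ebf1, at 2.3 kb, lay just beyond this limit. The mean density of the windows gives 2.45 HFD and 2.25 STD peaks for the 24 kb concerned, so these counts are too small to show whether the starts differ from the rest. The peak nearest to the start was 7.3 kb (HFD) and 7.2 kb (STD) away at Pparg, 5.2 and 5.9 kb at Cebpa, 2.3 and 3.1 kb at Ebf1, 3.0 and 5.4 kb at Rxra, and 1.2 and 4.5 kb at Srebf1. At Zfp423 it was 35.2 kb away with HFD and 8.8 kb with STD. The nearest peak shared by both diets was closest at Ebf1, at 3.3 kb with HFD and 3.1 kb with STD, and farthest at Zfp423, at 35.2 kb. Depth is unknown, so a place without a peak is one where none was listed, and methylation there is not excluded.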

How the data were processed

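DNA from epididymal fat of 1 library per diet was assayed by MeDIP-seq. The authors deposited 1 peak list per library with the start and end of each peak and no score, height or count. The submitters' processing notes name the aligner BWA and the build mm9. Peak caller, threshold and depth: not given in the sources used here. Members, gene lists and rules were chosen with earlier results of these data known.

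Mitochondrial peaks were left out. Windows came from the rule in mm9. No mm9 annotation was used, so other regulators of fat cell formation and cell type markers were not placed and are not analysed here, and the tissue label could not be checked. RefSeq (GRCm38.p6) gave names, strands, gene lengths and promoter sequences, matched by symbol for 6 of 6 genes. A partner overlapped by at least 1 bp, and the numbers were identical to those of bedtools 2.31.1. Ratios of counts have exact conditional binomial intervals, and shares exact binomial (Clopper-Pearson) ones. The share to expect from widths weights the whole list's share in 5 width classes. Named peaks were the widest of each list, those nearest the start, those without a partner over 100 bp above the narrowest width, and all at Cebpa; further peaks were chosen after their values were seen. Partner assignment was tested on simulated data. Python 3.11.15 was used with scipy 1.17.1, pandas 2.3.3, numpy 2.4.6 and, for plots, matplotlib 3.10.9.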

Additional observations from a re-analysis of the deposited data

How the results depend on the processing

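Of 35 recomputed values over the 6 windows, 34 stayed within the counting interval of the value reported. The exception was the share of STD peaks with a partner, 69.7%, which was 57.1% when the same number of widest peaks was kept in both lists, where a partner also had to pass that limit. The ratio of HFD to STD peaks ranged from 0.881 to 1.102, so it has no stable direction. Density relative to the surroundings ranged from 0.835 to 0.954 (HFD) and from 0.875 to 0.960 (STD). Of 40 values for single genes 5 left their interval. With peaks over 50 bp above the narrowest width these were the HFD share with a partner at Pparg (0%), Cebpa (100%) and Srebf1 (100%) and the STD share at Zfp423 (54.8%), and without flanks the STD share at Srebf1 (100%). At Pparg no STD peak was that wide, so its 0% was fixed in advance. The ratio of HFD to STD peaks at Srebf1 was 0.5 without narrow peaks, and the share with a partner at Rxra was 66.7% (HFD) and 50% (STD). Pparg and Cebpa have no peaks without their flanks, so these gave no value. No paired analysis was possible because the HFD and STD groups are 1 library each, which also leaves none to omit. As depth is unknown, a missing peak can be a weak one.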
